A study of Mus musculus with 8 samples.

Results

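The 8 genes described here take part in signals from the hypothalamus to the pituitary, among other roles, and were followed in 8 mouse hypothalami. They were chosen by name from a table of 55401 genes: Crh, Trh, Ghrh, Sst and Gnrh1, which encode releasing and inhibiting hormones, and Th, Ddc and Slc6a3, which make and take up dopamine. All 8 were in the table and all 8 passed the expression filter of a mean of at least 0.5 FPKM (fragments scaled to gene length and library size), as did 16894 genes in all. The first group was 4 pups gavaged with PLX3397, an inhibitor of the receptor CSF1R that removes microglia, from postnatal day 9 to day 15. The other group was 4 pups gavaged with vehicle on the same days. Hypothalami of both groups were taken on postnatal day 19, each group held 2 females and 2 males, and no source used here names the strain. The compound was given to the whole animal, so it is not limited to microglia of the hypothalamus. Libraries are called here by treatment and by their sex and number (F1, F2, M1, M2). The submitters' design text names the tissue as hypothalamus, while the tissue label reads brain. The stated question is the role of microglia in how the hypothalamus matures after birth.

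As background, neurons that reach the median eminence release their hormones into the portal blood that feeds the anterior pituitary. Corticotropin-releasing hormone (Crh) drives corticotropin, thyrotropin-releasing hormone (Trh) drives thyrotropin, growth hormone-releasing hormone (Ghrh) drives growth hormone, and gonadotropin-releasing hormone (Gnrh1) drives the gonadotropins. Somatostatin (Sst) holds growth hormone back, and dopamine from tuberoinfundibular neurons of the arcuate nucleus holds prolactin back. Sst and Trh are also made by hypothalamic neurons that do not project to the median eminence.

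The sequences just before the transcription starts of the genes on which the results turn are shown here, read from RefSeq windows of build GRCm38.p6, 5′ to 3′ on the gene's strand, with the matches described below in capitals. Of the 8 genes, 6 had such a window and Crh and Gnrh1 did not. Ghrh is shown because it was the only one of the 8 whose groups lay apart in every library, and it has 2 annotated starts. Slc6a3 is shown because its level varied most between libraries. The windows lie at chr2:157337427-157337676 (minus strand) and chr2:157346656-157346905 (minus strand) for Ghrh and at chr13:73536497-73536746 (plus strand) for Slc6a3.
Ghrh, inner start: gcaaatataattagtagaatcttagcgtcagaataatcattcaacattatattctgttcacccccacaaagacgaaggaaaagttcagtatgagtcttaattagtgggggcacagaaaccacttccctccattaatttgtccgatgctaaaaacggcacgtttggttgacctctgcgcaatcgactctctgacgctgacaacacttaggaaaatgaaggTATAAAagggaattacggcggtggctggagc
Ghrh, outer start: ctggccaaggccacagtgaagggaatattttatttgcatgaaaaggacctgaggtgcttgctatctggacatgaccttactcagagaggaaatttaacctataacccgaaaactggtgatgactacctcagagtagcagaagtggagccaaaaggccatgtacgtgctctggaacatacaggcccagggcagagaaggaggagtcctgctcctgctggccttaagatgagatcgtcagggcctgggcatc
Slc6a3: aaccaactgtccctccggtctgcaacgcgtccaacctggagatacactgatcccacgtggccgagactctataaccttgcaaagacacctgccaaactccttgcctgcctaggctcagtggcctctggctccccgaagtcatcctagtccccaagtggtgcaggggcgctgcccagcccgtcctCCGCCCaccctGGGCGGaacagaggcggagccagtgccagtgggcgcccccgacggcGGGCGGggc
The inner Ghrh window holds a TATA box (TATAAA) whose first base is at position -31 from the start, and the outer one holds none of the motifs searched. The Slc6a3 window holds no TATA box and has 3 GC boxes (GGGCGG), with first bases at -66 (on the opposite strand), -55 and -9. The motifs were searched on both strands over 250 bases, where TATAAA was present in 12.4% and GGGCGG in 32.7% of all 32851 windows. Sst and Th share the palindrome TGACGTCA, the cAMP response element, which 1.55% of all windows hold. It starts at -48 in Sst and at -45 in Th, shown here with 8 bases on either side (chr16:23890877-23890900 and chr7:142900025-142900048, both minus strand). Both stretches precede the RefSeq start but lie inside the gene spans of the deposited table given below, and each window overlaps 1 annotated exon of its gene in GENCODE; the inner Ghrh window also lies inside its gene's span and overlaps 0 exons.
Sst: tccttggcTGACGTCAgagagaga
Th: aggggcttTGACGTCAgcctggcc
The fourth motif searched, the Nr4a response element AAAGGTCA, was found in 1.34% of all windows and, among these 8 genes, in Ddc at -73, where it overlaps a TATAAA match at -68, both on the opposite strand. These matches describe letters in the windows and do not show that a factor binds there.

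Levels per length, as the deposited FPKM over all 8 libraries, spanned more than 2 orders of magnitude. Sst was highest at 189 ± 16.6 FPKM (SD, n = 8), followed by Trh at 68.8 ± 13.9 FPKM and Ghrh at 20.1 ± 2.72 FPKM. Th stood at 14.0 ± 3.99 FPKM, Ddc at 10.9 ± 1.09 FPKM and Slc6a3 at 4.68 ± 4.02 FPKM. Gnrh1, made by few and scattered neurons, averaged 1.83 ± 0.946 FPKM, and Crh 1.62 ± 0.423 FPKM. Sst and Trh stood apart from their neighbours in this order in every library, whereas the ranges of Ghrh and Th, Th and Ddc, Ddc and Slc6a3, Slc6a3 and Gnrh1, and Gnrh1 and Crh overlapped. Within libraries Ghrh was above Th in 7 of 8, Th above Ddc in 7, Slc6a3 above Gnrh1 in 6 and Gnrh1 above Crh in 5. The pair Gnrh1 and Crh was therefore not ordered beyond its spread.

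Total counts ran from 55900335 to 67487391 in PLX3397 and from 54115300 to 60001808 in vehicle libraries, and mitochondrial transcripts took 4.87% to 5.36% and 4.51% to 4.88% of them. All 10 microglial markers on a list were lower in every PLX3397 library than in any vehicle library, 7 of them past the test (edgeR), and their summed level was 39.3 to 61.6 CPM (counts scaled to the library total) against 265 to 284 CPM. Csf1r, the receptor gene of the compound's target, had 6.34, 5.97, 5.07 and 1.22 CPM in the 4 PLX3397 libraries (F1, F2, M1, M2), against 77.3, 81.2, 80.0 and 85.2 CPM in the vehicle libraries in the same order. The summed oligodendrocyte markers were also lower (2029 to 4590 CPM against 6136 to 9152 CPM), and 8 pan-neuronal genes had a summed level of 3969 to 4258 CPM against 3745 to 3883 CPM. The 12 hypothalamic markers were all detected, with 601 to 948 CPM against 665 to 903 CPM in sum. Vehicle F1 stood apart by pituitary transcripts, with 2683 CPM of growth hormone (Gh) where the other 7 libraries had at most 0.870 CPM. In whole tissue, fewer cells of a type and less RNA per cell cannot be told apart.

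None of the 8 genes passed the test between PLX3397 and vehicle over all genes (edgeR's quasi-likelihood test, Benjamini-Hochberg adjusted p under 0.05), where 2.14% of all tested genes did, 0.308% higher and 1.83% lower. Without adjustment 1 of the 8 had p under 0.05, which 16.2% of all tested genes had, 7.24% being higher. That gene, Ghrh, was also the 1 called with DESeq2, which called 6.51% of all genes (2.03% higher), and with limma-trend on log2(FPKM + 0.5), which called 2.18% (0.243% higher). With pseudocounts of 0.1 and 1, limma-trend called 2.11% and 2.21% of all genes (0.237% and 0.255% higher) and again Ghrh. Each gene's exact permutation test over the 8 libraries gave the same single gene, at the smallest p that 4 against 4 libraries allow. That p needs groups that do not overlap, as 11.1% of all tested genes had, so 1 of 8 is near the background.

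**Figure D1:**
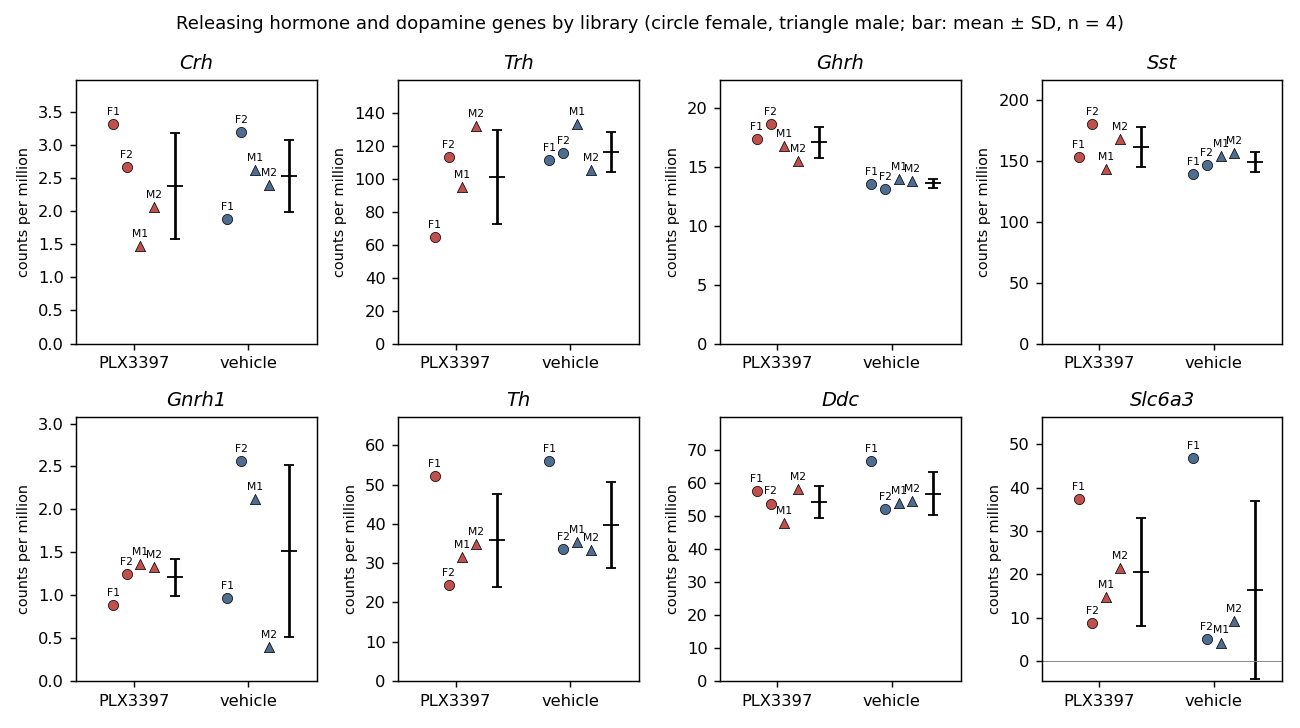
CPM of each gene (linear axis) in the 4 PLX3397 libraries (left, red) and the 4 vehicle libraries (right, blue), circles for females and triangles for males, with the mean and SD beside each group. Ghrh is higher in every PLX3397 library than in any vehicle library, while the groups of the other 7 genes overlap, and Th and Slc6a3 are highest in the F1 library of each group.

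Ghrh, the growth hormone-releasing hormone gene (chromosome 2, 157329497 to 157346655, mm10), was higher in PLX3397 hypothalami by a small amount that missed the threshold. It had 17.4, 18.7, 16.8 and 15.5 CPM in PLX3397 F1, F2, M1 and M2, against 13.6, 13.1, 14.0 and 13.8 CPM in vehicle F1, F2, M1 and M2. Every PLX3397 library lay above every vehicle library, as in 4.05% of all tested genes, which lay apart in this direction. The means were 17.1 ± 1.31 and 13.6 ± 0.380 CPM (SD, n = 4 each), a ratio of 1.26. The fitted log2 fold change was 0.34 ± 0.07 (95% interval 0.16 to 0.51; edgeR adjusted p = 0.0757, unadjusted p = 0.00223). The exact two-sided permutation test gave p = 0.0286, the smallest it can give. The call depended on the test: with DESeq2 the adjusted p was 0.00419 and with limma-trend on log2(FPKM + 0.5) it was 0.0395, whereas over the fits that leave out a library it ran from 0.0851 to 0.188. The fold change itself stayed between 0.29 and 0.38 over those fits.

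Ghrh rested on 867 to 1209 counts in PLX3397 libraries and on 756 to 827 counts in vehicle libraries, a counting SD of 2.88% to 3.64% of each value. The Poisson 95% interval of the lowest PLX3397 value (M2) began at 14.5 CPM, below the upper bounds of vehicle F1, M1 and M2. These intervals cover counting error only. Beside Ghrh, the 8 pan-neuronal genes had a median log2 fold change of 0.16. Nefl, a neurofilament gene, rose (0.17, edgeR adjusted p = 0.0421, but 0.059 to 0.133 in the 8 fits that left out a library). Of these 8 pan-neuronal genes 5 lay higher in every PLX3397 library than in any vehicle library, as 4.05% of all tested genes did. In all 7 were positive, and 5 had an edgeR unadjusted p under 0.05, as 16.2% of all tested genes had. The other 7 beside Nefl did not pass. They were Snap25 (0.15, edgeR adjusted p = 0.0571), Map2 (0.29), Rbfox3 (0.17), Elavl4 (0.16), Stmn2 (0.08), Syt1 (0.03) and Tubb3 (-0.00), named after their values were seen. The part of neuronal transcript levels in the result for Ghrh was not tested.

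The counterpart of Ghrh in growth hormone control, Sst, did not differ between the groups beyond the spread of the libraries. Sst (chromosome 16, 23889573 to 23890958) had 154, 181, 143 and 168 CPM in PLX3397 F1, F2, M1 and M2, against 139, 147, 154 and 157 CPM in the vehicle libraries. The groups overlapped, and the log2 fold change was 0.12 ± 0.08 (95% interval -0.07 to 0.32; edgeR adjusted p = 0.52). It was 0.05 without PLX3397 F2 and 0.20 without PLX3397 M1. In the same libraries the ratio of Ghrh to Sst in FPKM was 0.0994 to 0.126 in PLX3397 and 0.0948 to 0.105 in vehicle.

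Trh (chromosome 6, 92242061 to 92244650) varied more in PLX3397 than in vehicle libraries. It had 64.7, 113, 94.9 and 132 CPM in PLX3397 F1, F2, M1 and M2, against 111, 116, 133 and 105 CPM in the vehicle libraries. PLX3397 F1 was the lowest of all 8, and the groups overlapped. The coefficient of variation was 28.3% in PLX3397 and 10.5% in vehicle libraries, and the log2 fold change was -0.20 ± 0.19 (95% interval -0.65 to 0.24; edgeR adjusted p = 0.664). It was -0.04 without PLX3397 F1, -0.35 without PLX3397 F2 and -0.33 without PLX3397 M2.

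The least abundant hormone genes showed no difference that these libraries could resolve. Crh (chromosome 3, 19693401 to 19695396) had 3.32, 2.67, 1.47 and 2.06 CPM in PLX3397 F1, F2, M1 and M2, against 1.88, 3.19, 2.62 and 2.40 CPM in the vehicle libraries. Its log2 fold change was -0.12 ± 0.26 (95% interval -0.73 to 0.49; edgeR adjusted p = 0.864), and the sign turned without PLX3397 M1 (0.05). The effect of PLX3397 on Crh was 0.26 in females and -0.51 in males, a difference that missed the test (edgeR adjusted p = 0.852).

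Gnrh1 (chromosome 14, 67745181 to 67749439) was even in PLX3397 and scattered in vehicle libraries. It had 0.889, 1.25, 1.37 and 1.32 CPM in PLX3397 F1, F2, M1 and M2, against 0.967, 2.56, 2.13 and 0.400 CPM in the vehicle libraries. The vehicle values enclosed all PLX3397 values. Vehicle M2 rested on 24 counts (Poisson 95% interval 0.256 to 0.595 CPM) and vehicle F2 on 150 counts (2.17 to 3.01 CPM), so this scatter exceeds counting error. The log2 fold change was -0.31 ± 0.54 (95% interval -1.56 to 0.94; edgeR adjusted p = 0.833), and the sign turned without vehicle F2 (0.13) or vehicle M1 (0.12).

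**Figure D2:**
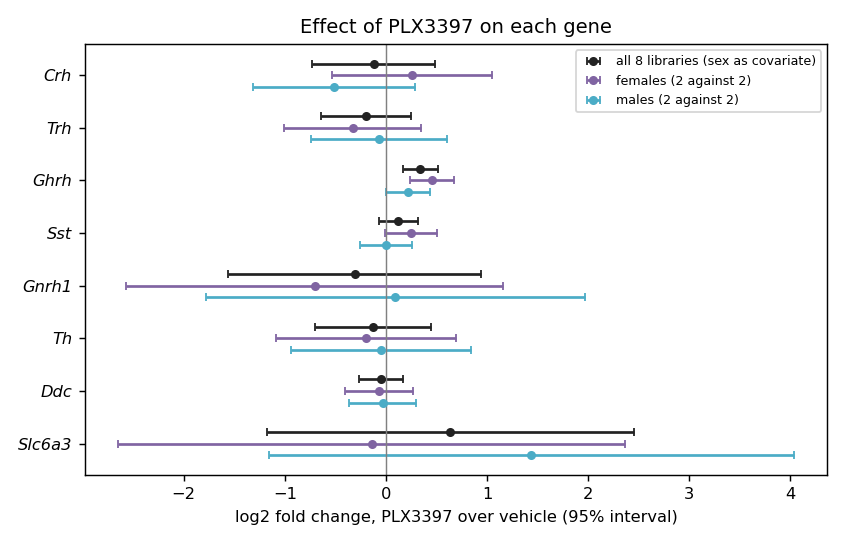
Log2 fold change of each gene, PLX3397 over vehicle, with its 95% interval, for all 8 libraries (black), females (purple) and males (blue). The interval of Ghrh over all libraries lies above 0, at 0.16 to 0.51, and those of the other 7 genes include 0; Slc6a3 and Gnrh1 have the widest intervals.

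Th, which encodes tyrosine hydroxylase, the rate-limiting enzyme of dopamine synthesis, varied between libraries without a difference between the treatments beyond that spread. Th (chromosome 7, 142892752 to 142931128) had 52.2, 24.3, 31.6 and 34.9 CPM in PLX3397 F1, F2, M1 and M2, against 56.0, 33.6, 35.4 and 33.4 CPM in the vehicle libraries. The F1 library was the highest of its group in both treatments, and the other 6 libraries lay between 24.3 and 35.4 CPM. The log2 fold change was -0.13 ± 0.25 (95% interval -0.70 to 0.45; edgeR adjusted p = 0.853). Its sign turned without PLX3397 F2 (0.07) or vehicle F1 (0.05).

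Slc6a3, the dopamine transporter that takes dopamine back into the cell, varied most of the 8 genes, 11.1-fold between its highest and lowest library. Slc6a3 (chromosome 13, 73536747 to 73578672) had 37.4, 8.63, 14.7 and 21.5 CPM in PLX3397 F1, F2, M1 and M2, against 46.9, 4.97, 4.23 and 9.10 CPM in the vehicle libraries. The F1 libraries were again the highest, and the groups overlapped. The log2 fold change was 0.64 ± 0.78 (95% interval -1.18 to 2.45; edgeR adjusted p = 0.747). Most libraries moved this value when left out: without vehicle F1 it was 1.74 (adjusted p = 0.233), without PLX3397 F2 1.09 (0.57) and without vehicle M1 0.28 (0.913). It also moved by over 1.5 times without PLX3397 F1 (0.41), PLX3397 M2 (0.38) or vehicle F2 (0.37). Without both F1 libraries, a fit chosen after these values were seen, it was 1.23 (adjusted p = 0.211), with 8.63 to 21.5 CPM in the 3 PLX3397 and 4.23 to 9.10 CPM in the 3 vehicle libraries left.

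Ddc, whose enzyme turns L-DOPA into dopamine and also serves serotonin synthesis, was the steadiest of the dopamine genes. Ddc (chromosome 11, 11814101 to 11898144) had 57.6, 53.7, 47.7 and 58.2 CPM in PLX3397 F1, F2, M1 and M2, against 66.6, 52.2, 53.7 and 54.5 CPM in the vehicle libraries. The groups overlapped, vehicle F1 was the highest, and the log2 fold change was -0.05 ± 0.09 (95% interval -0.27 to 0.16; edgeR adjusted p = 0.84). The serotonin markers Tph2, Slc6a4 and Fev were at most 0.674 CPM in any library.

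The share of transporter to enzyme transcripts differed between libraries. The ratio of Slc6a3 to Th in FPKM was 0.49, 0.243, 0.317 and 0.422 in the PLX3397 libraries F1 to M2, against 0.573, 0.101, 0.0815 and 0.186 in the vehicle libraries. Apart from the 2 F1 libraries, the 3 PLX3397 values lay above the 3 vehicle values, a comparison chosen after the values were seen and given with no test. The ratio of Th to Ddc was 1.71, 0.853, 1.25 and 1.13 in the PLX3397 libraries F1 to M2, against 1.59, 1.21, 1.24 and 1.16 in the vehicle libraries.

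**Figure D3:**
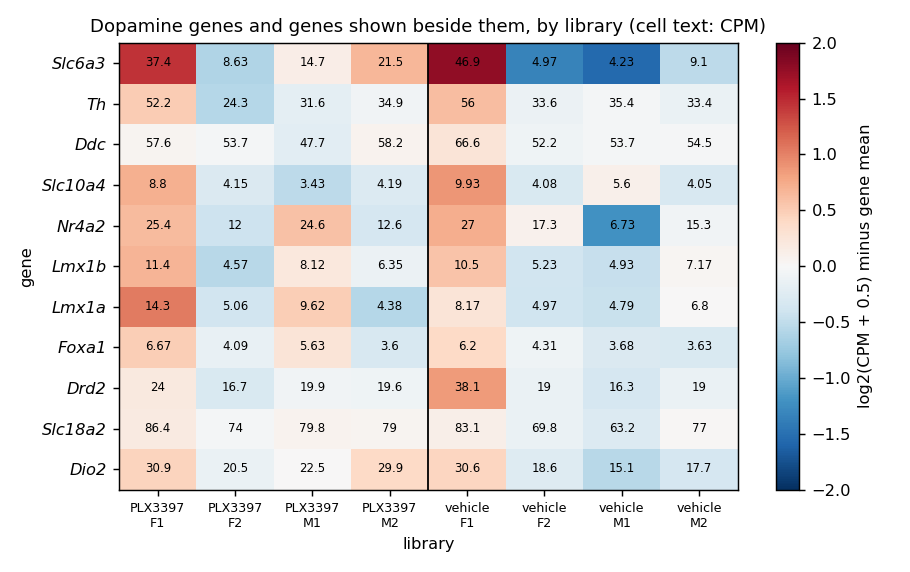
Level of the dopamine genes and of genes described beside them in each library, PLX3397 on the left, coloured by log2(CPM + 0.5) minus the gene's mean over 8 libraries, with the CPM printed in each cell. Slc6a3 spans 4.23 to 46.9 CPM and is deepest red in the F1 library of each group. Every other gene shown is also highest of its group in F1, except Ddc in PLX3397, which had 58.2 CPM in M2 and 57.6 CPM in F1. The genes were picked by hand: Slc18a2, Drd2 and Lmx1b after their values were seen, and Dio2 is the gene most like Slc6a3. The shared F1 maximum thus partly follows from this choice. Among listed genes not drawn, Drd5 and Pts were highest in the M2 library of each group.

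Markers of midbrain dopamine neurons were read beside Th and Slc6a3. The sum of 9 such markers was 29.9 to 69.2 CPM in PLX3397 and 27.1 to 64.1 CPM in vehicle libraries, and the F1 libraries held the highest value of each group. Slc10a4, a vesicle transporter-like gene of monoamine and cholinergic neurons, had 8.80 CPM in PLX3397 F1 and 9.93 CPM in vehicle F1 and less in each of the other 6 libraries. Nr4a2, a transcription factor of midbrain dopamine neurons, had 25.4 CPM in PLX3397 F1 and 27.0 CPM in vehicle F1, but also 24.6 CPM in PLX3397 M1, where Slc6a3 was 14.7 CPM. Lmx1b had 11.4 and 10.5 CPM in the F1 libraries of PLX3397 and vehicle, and at most 8.12 CPM elsewhere. Of the defining factors, Pitx3 was at most 0.222 CPM, in PLX3397 F1, and at 0 in 6 of 8 libraries. En1 had 0.978 and 0.846 CPM in the F1 libraries of PLX3397 and vehicle, and at most 0.665 CPM elsewhere. Foxa2 had 0.785 and 0.656 CPM in these F1 libraries and at most 0.277 CPM elsewhere. En2 was highest in vehicle M1 at 0.961 CPM, with 0.637 CPM in PLX3397 F1 and 0.708 CPM in vehicle F1. None of the 5 tested midbrain markers passed between the treatments (edgeR; 0 with unadjusted p under 0.05). Of the 9 markers, 4 were under the filter. The part of neurons of other regions in the levels of Th and Slc6a3 was not tested.

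The genes that act with these 8 were described by lists, each by its count of calls and its median beside the median of all tested genes, which was -0.00 on the log2 scale. Of all 16894 tested genes 8348 were positive, and 16.2% had an edgeR unadjusted p under 0.05. Of 11 receptors of the releasing hormones 9 were tested and 0 passed (edgeR; 2 with unadjusted p under 0.05), with 8 of 9 positive and a median of 0.15. Crhr2, a receptor of the corticotropin-releasing hormone family, had 9.29, 11.3, 11.8 and 6.14 CPM in PLX3397 F1, F2, M1 and M2, against 5.17, 6.25, 5.78 and 4.88 CPM in the vehicle libraries (log2 fold change 0.81 ± 0.21, adjusted p = 0.111). Sstr2, a somatostatin receptor, had 0.27 ± 0.07 (adjusted p = 0.104), with 19.5 to 22.4 CPM in PLX3397 and 15.9 to 19.8 CPM in vehicle libraries. The receptors Ghrhr and Gnrhr, by which pituitary cells answer Ghrh and Gnrh1, were under the filter: Ghrhr was 12.2 CPM in vehicle F1, 0.133 CPM in vehicle M2 and 0 in the other 6 libraries, and Gnrhr was 5.82 CPM in vehicle F1 and 0 in the other 7.

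Among 3 genes that bind or break down the hormones, 1 fell. Pgpep1, a pyroglutamyl peptidase that can cleave peptides with a pyroglutamate end such as TRH, had 19.9, 19.9, 20.7 and 21.6 CPM in PLX3397 F1, F2, M1 and M2, against 25.6, 25.9, 24.7 and 26.1 CPM in the vehicle libraries (log2 fold change -0.31 ± 0.05, edgeR adjusted p = 0.0351). The call was lost in all 8 fits that left out a library (adjusted p from 0.0633 to 0.121). Trhde, the membrane peptidase that degrades TRH, had 16.9 to 19.1 CPM in PLX3397 and 20.8 to 23.8 CPM in vehicle libraries (-0.27 ± 0.06, adjusted p = 0.0739). Both genes were lower in every PLX3397 library than in any vehicle library, as 7.04% of all tested genes were, while Trh itself overlapped between the groups. Crhbp, which binds corticotropin-releasing hormone, had 0.24 (adjusted p = 0.414).

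Of 13 genes for the cofactor, storage and breakdown of dopamine 11 were tested and 0 passed (edgeR; 2 with unadjusted p under 0.05; median 0.05). Those 2 were Pts, an enzyme of tetrahydrobiopterin synthesis (-0.35, adjusted p = 0.143), and Aldh1a1, an aldehyde dehydrogenase (0.45, adjusted p = 0.212). Slc18a2, the vesicular monoamine transporter, had 74.0 to 86.4 CPM in PLX3397 and 63.2 to 83.1 CPM in vehicle libraries. Of 6 genes for dopamine receptors and the prolactin receptor 5 were tested and 0 passed (edgeR; 1 with unadjusted p under 0.05, Drd3 at 0.74; median 0.24). Drd2, the dopamine receptor that pituitary lactotrophs also carry, had 38.1 CPM in vehicle F1, the library with pituitary transcripts, and 16.3 to 24.0 CPM in the other 7.

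Of 12 genes that cleave, amidate or store prohormones 0 passed (edgeR; 2 with unadjusted p under 0.05), with 9 positive and a median of 0.08. Those 2 were Cpe, a carboxypeptidase (0.13, adjusted p = 0.187), and Furin, a protease (-0.18, adjusted p = 0.293). Of 22 transcription factors of hormone neurons 0 passed (edgeR; 3 with unadjusted p under 0.05; median -0.03). Among these were Creb1 (-1.19, adjusted p = 0.27) and Bsx, a homeobox gene of the arcuate nucleus (0.24, adjusted p = 0.29). Creb1, whose product binds cAMP response elements, had 8.71, 39.5, 12.9 and 7.10 CPM in PLX3397 F1, F2, M1 and M2, against 41.0, 37.5, 28.7 and 36.4 CPM in the vehicle libraries. PLX3397 F2 lay within the range of the vehicle libraries, and without it the value was -1.88 (edgeR adjusted p = 0.029), the only 1 of the 8 fits without a library in which Creb1 passed. Gsx1, a homeobox factor that GHRH neurons need in mice, had 0.28 (adjusted p = 0.563). Of 11 related ligands 8 were tested and 0 passed (edgeR; 0 with unadjusted p under 0.05), Pdyn at 0.12 and Ucn3 at -0.86 having the smallest p.

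**Figure D4:**
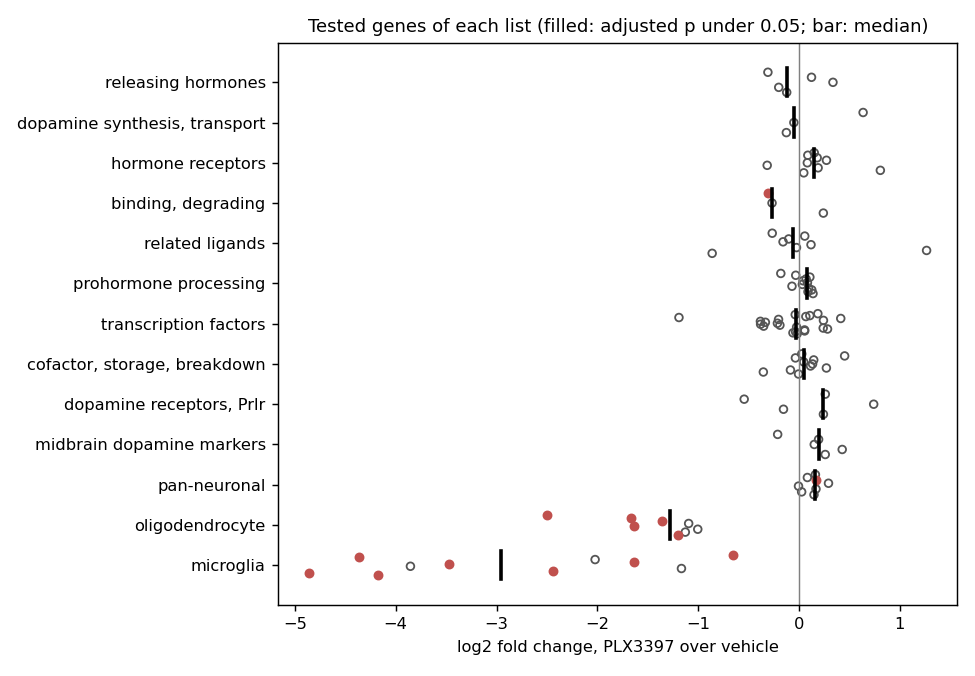
Log2 fold change (PLX3397 over vehicle) of each tested gene of 13 lists, filled where the adjusted p was under 0.05, with the list median as a bar. The hormone and dopamine genes have no filled point, Pgpep1 is the filled point among the binding and degrading genes, and the microglial and oligodendrocyte lists lie far to the left, with medians of -2.96 and -1.28.

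The remaining lists place these values in the tissue. Of 6 meningeal fibroblast markers 2 rose, Slc6a13 (0.73, edgeR adjusted p = 0.0218) and Aldh1a2 (0.35, adjusted p = 0.0488), of which Slc6a13 passed in 3 and Aldh1a2 in 0 of the 8 fits that left out a library, and their summed level was 287 to 429 CPM in PLX3397 and 195 to 275 CPM in vehicle libraries; the part of meningeal tissue in the levels of Crhr2 and Aldh1a1 was not tested. Of 6 genes listed as tanycyte markers 1 fell, Vcan (-1.27, edgeR adjusted p = 0.0046). The other 5 did not pass, 3 of the 6 were positive and the median was -0.01. Which cells account for the fall of Vcan was not tested, so it is not read as a change of tanycytes. Of 5 tested thalamic markers 1 fell, Prkcd (-0.54, edgeR adjusted p = 0.0229, passing in 2 of those 8 fits). The tested thalamic markers had 2 positive values and a median of -0.24. All 6 listed thalamic genes summed to 418 to 481 CPM in PLX3397 and 403 to 421 CPM in vehicle libraries. Slc17a6 dominated that sum, with a mean log2 CPM of 8.50 against 3.18 to 4.81 for the other tested genes of the list. Its log2 fold change was 0.20 (edgeR adjusted p = 0.124) and that of Lef1 0.14, whereas Tcf7l2 (-0.42) and Rgs16 (-0.24) were negative like Prkcd. The sum therefore follows Slc17a6 and does not measure the thalamic share. None passed among 12 hypothalamic markers (edgeR; 3 with unadjusted p under 0.05, Agrp at 1.08 with adjusted p = 0.0699), 6 astrocyte markers (1 with unadjusted p under 0.05), 6 striatal markers (0), 9 tested pituitary markers (2) and Hdc, the only tested marker of serotonin, noradrenaline and histamine neurons (0).

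Sex did not separate these genes at this number of libraries. Between females and males, with treatment as a covariate, 0 of the 8 passed (edgeR, 0 with unadjusted p under 0.05), where 0.0592% of all tested genes did, and DESeq2 and limma-trend also called 0. The largest difference was that of Slc6a3, 1.14 ± 0.78 on the log2 scale, female over male (adjusted p = 0.933). It rested on the F1 libraries of PLX3397 and vehicle, at 37.4 and 46.9 CPM. The F2 libraries, at 8.63 and 4.97 CPM, lay within the male range of 4.23 to 21.5 CPM. The effect of PLX3397 did not differ between the sexes in any of the 8 past the test (edgeR, 0 adjusted and 0 with unadjusted p under 0.05, where 0.077% of all tested genes passed, and 0 with DESeq2 and limma-trend). For Ghrh the effect was 0.46 ± 0.09 in females, with 17.4 and 18.7 CPM in PLX3397 against 13.6 and 13.1 CPM in vehicle. Ghrh passed in neither sex alone, where 0.361% of all tested genes passed in females and 1.54% in males. In males it was 0.22 ± 0.09, with 16.8 and 15.5 CPM in PLX3397 against 14.0 and 13.8 CPM in vehicle. The difference of 0.24 ± 0.13 missed the test (edgeR adjusted p = 0.834), so an effect of equal size in both sexes and a larger effect in females cannot be told apart.

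**Figure D5:**
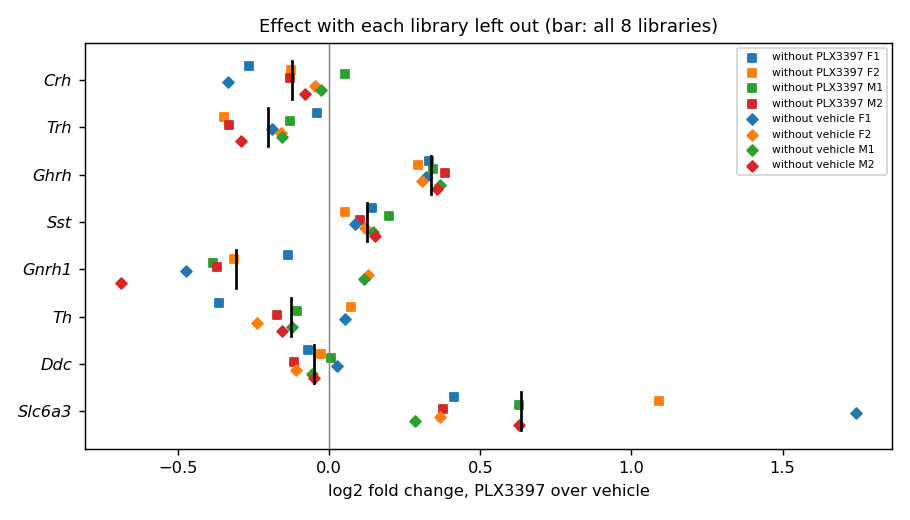
Log2 fold change (PLX3397 over vehicle) of each gene with each library left out in turn, squares for PLX3397 and diamonds for vehicle libraries, and the value with all 8 as a bar. Ghrh stays between 0.29 and 0.38, whereas Slc6a3 runs from 0.28 to 1.74, its highest value being that without vehicle F1.

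As a description, the tested genes whose log2 level ran most like each gene over the 8 libraries were looked up by Pearson's r. For Ghrh they were Ints10 (r = 0.987), Prdx6 (0.98) and Rpusd1 (0.976). For Slc6a3 they were Dio2, which activates thyroid hormone (r = 0.942), Cpsf4l (0.939) and Copa (0.933). For Th they were Mab21l1 (r = 0.973), Ctsk (0.96) and Pik3c2a (0.949), a likeness that weighs the 2 F1 libraries heavily. Dio2 had 30.9 and 30.6 CPM in the F1 libraries of PLX3397 and vehicle, 29.9 CPM in PLX3397 M2 and 15.1 to 22.5 CPM elsewhere. Each list was taken from the other 16893 tested genes, and all points are the same 8 libraries, so the values describe likeness of pattern in these libraries alone.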

How the data were processed

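RNA sequencing of 8 mouse hypothalami was read from a table of counts and FPKM that the authors deposited; per the file headers it holds whole-number counts per gene and FPKM values, which the authors scaled to library size and gene length. Per the labels' protocols, probes removed ribosomal RNA and random primers started the reverse transcription. Per the submitters' processing notes, which give no roles, the tools are HISAT2, StringTie, bcl2fastq 2.0, limma and DESeq2 and the build is mm10; no source used here gives the counting tool or strand setting. CPM are counts scaled to the deposited library total, and a count of 0 allows up to 3 counts, 0.0445 to 0.0554 CPM by library. Genes whose FPKM averaged 0.5 or more were tested with edgeR 4.0.16 (R 4.3.3) on the counts: TMM scaling, quasi-likelihood F-test, two-sided, sex as covariate, Benjamini-Hochberg over 16894 genes, threshold 0.05. Standard errors are the absolute log2 fold change over the square root of F. Effects within each sex and their difference came from a model of 4 groups. Single genes also had an exact two-sided permutation test of mean log2(CPM + 0.5), 8 tests in all. The edgeR fits of treatment and of its difference between the sexes were run on simulated counts, as was limma-trend, on CPM of those counts. The other tests, among them DESeq2, the sex test and the permutation test, were not. Changes as small as that of Ghrh were not simulated.

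The 8 genes, the 20 other lists (179 symbols in all, 179 matched) and the tests were chosen with earlier results of these data known. Of the lists, called members are named, otherwise up to 4 with the smallest p; for each of the 8, the 3 genes of highest Pearson r were looked up. Trhde, Crhbp, Ghrhr, Gnrhr, Slc18a2, Drd2, Gsx1, Lmx1b, Pitx3, En1, Tph2, Slc6a4, Fev and Gh were named outside this rule, after their values were seen. So were En2, Foxa2, Slc17a6, Tcf7l2, Rgs16, Lef1 and the pan-neuronal genes beside Nefl. Not every gene the rule names is printed, and the cortical list is not reported here. The 8 genes had 1 overlapping gene, a near-silent one at Ddc. No 2 libraries of a group agreed within counting noise; p-values measure the spread between these 8 hypothalami. Alternatives used other filters, scalings, covariates, DESeq2 1.42.0, limma-trend (limma 3.58.1, pseudocounts 0.5, 0.1 and 1) and left-out libraries.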

Additional observations from a re-analysis of the deposited data

Results flagged for a closer look

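In groups of 4 libraries, single values far from the other 3 were looked for among 45 genes, most of them named in the text. Of the 88 groups checked 9 were flagged, where chance alone flags about 1 in 20 groups. Some of these genes, such as Gh, Ghrhr, Gnrhr and Drd2, were named after their values were seen. That rate does not hold for them. In vehicle F1, Th at 56.0 CPM, Ddc at 66.6 CPM and Slc6a3 at 46.9 CPM lay far above the other 3 vehicle libraries. The same library stood apart in Ghrhr at 12.2 CPM, Gnrhr at 5.82 CPM, Drd2 at 38.1 CPM and Gh at 2683 CPM. In PLX3397 F1, Slc10a4 at 8.80 CPM lay above the other 3 PLX3397 libraries. In PLX3397 M1, Sstr2 at 19.5 CPM lay below the other 3. No gene of the 8 stood apart in this way within the PLX3397 group.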

How the results depend on the processing

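Counts of called genes depended on the fit: 362 over all genes became 1099 with DESeq2, 79 with the replicate label as a replicate block, 123 without vehicle F1 and PLX3397 M2 together, and 138 to 361 without a library in turn. Of the 8 genes 0 were called, and 1 (Ghrh) with DESeq2, with limma-trend at pseudocounts 0.5, 0.1 and 1, and in no other fit; its adjusted p ran from 0.00419 to 0.247. With the replicate block, Ghrh had 0.34 (adjusted p = 0.194) and Slc6a3 0.88 (0.335), and no call changed among the 8. Whether the labels F1 to M2 pair the libraries is not given: same-labelled libraries correlated at 0.0412 to 0.087 in their deviations, and 3 of 4 correlated best with their own label. Signs turned for Th without PLX3397 F2 (0.0717), without vehicle F1 (0.0527) and without vehicle F1 and PLX3397 M2 (0.0373), for Crh without PLX3397 M1 (0.0517), for Ddc without PLX3397 M1 (0.00557) or vehicle F1 (0.0256) and for Gnrh1 without vehicle F2 (0.127) or vehicle M1 (0.117). Over the fits without a library, Trh ran from -0.347 to -0.0399, Sst from 0.052 to 0.198, Crh from -0.335 to 0.0517, Gnrh1 from -0.688 to 0.127, Th from -0.365 to 0.0717 and Ddc from -0.117 to 0.0256. The causes were not tested. Trh, Ghrh, Sst and Slc6a3 kept their sign in all 22 alternatives. Large changes could go unseen in Crh and Gnrh1, the genes with the fewest counts: their intervals reach -0.73 to 0.49 and -1.56 to 0.94. Slc6a3, Th and Trh had more counts, yet their intervals reach -1.18 to 2.45, -0.70 to 0.45 and -0.65 to 0.24. Large changes could therefore go unseen in these genes as well.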
